A study of Homo sapiens with 6 samples.

Results

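The genes described here are 9 complement genes, C3, CFB, C1R, C1S, CFI, CFD, CD46, CD55 and CD59, taken by symbol from a table of transcript abundance for 51537 genes. The 9 symbols matched 10 rows, because CFB names 2 of them. The groups were crizotinib-resistant H3122 cells (3 libraries) and control H3122 cells (3 libraries). H3122 is a human lung adenocarcinoma line known for an EML4-ALK fusion, and crizotinib inhibits the ALK and MET kinases. The resistant cells had been selected by raising crizotinib stepwise between 0.1 and 10 µM, and both groups are the same line. No separate selections are named, so the resistant libraries are not taken as several independent resistant lines. The labels do not say whether the drug was present at harvest. Nor do they call the replicates separate cultures, so each p-value below reflects the scatter among libraries and that scatter may be technical.

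Complement is a cascade of plasma and cell-surface proteins that tags and lyses cells. The classical pathway starts when C1R and C1S, the serine proteases of the C1 complex, cleave the next components; the alternative pathway uses CFB and its activator CFD to build an enzyme that cleaves C3, the protein on which all routes converge. Host cells protect themselves with CD46 and CFI, which together inactivate deposited C3 and C4 fragments, with CD55, which speeds the decay of the cleaving enzymes, and with CD59, which blocks the final pore. Liver makes most plasma complement, adipose tissue makes much CFD, and airway epithelium and many carcinomas also express complement genes.

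Values are TPM, a transcript abundance that divides reads by gene length and rescales each library to the same total, so that levels can be set side by side between genes. Estimated depth was 29856926 to 36695579 reads per library. A gene was tested when at least 3 libraries reached 1 TPM, which 16077 genes did, and was called changed at an adjusted p below 0.05 in limma, a linear model fitted to log2(TPM + 1) of all genes with Benjamini-Hochberg adjustment. Each log2 change is the resistant mean less the control mean on that scale, with its standard error (SE). Such changes understate the change of low genes. Of all genes tested, 48.6% were called, 24.0% higher and 24.7% lower in resistant cells.

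Promoter sequences of RefSeq (GRCh38.p14, 250 bases before and 50 after a gene's start) are shown for 4 members with different results: C1R and CD55 were higher in resistant cells, CFD was lower, and CFB did not pass the test. The first RefSeq start is shown for C1R, which has 2. Capitals mark matches, on either strand, to 5 short motifs: GGANTTTCC (bound by NF-kB factors), TTCNNNGAA (STAT factors), GAAANNGAA (IRF factors), TTGCNNAA (C/EBP factors) and TATAAA (the TATA box). 
C1R, chr12:7092396-7092695, minus strand: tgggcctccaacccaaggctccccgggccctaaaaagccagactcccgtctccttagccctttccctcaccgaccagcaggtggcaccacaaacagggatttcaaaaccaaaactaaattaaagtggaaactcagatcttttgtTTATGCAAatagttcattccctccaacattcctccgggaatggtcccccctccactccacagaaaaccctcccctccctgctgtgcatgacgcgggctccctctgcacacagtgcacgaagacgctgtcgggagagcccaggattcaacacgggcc
CD55, chr1:207321428-207321727, plus strand: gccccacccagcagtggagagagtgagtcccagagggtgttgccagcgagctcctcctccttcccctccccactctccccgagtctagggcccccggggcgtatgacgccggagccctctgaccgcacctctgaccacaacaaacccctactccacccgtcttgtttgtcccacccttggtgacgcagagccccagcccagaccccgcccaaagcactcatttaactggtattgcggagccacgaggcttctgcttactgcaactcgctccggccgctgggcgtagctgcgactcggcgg
CFD, chr19:859414-859713, plus strand: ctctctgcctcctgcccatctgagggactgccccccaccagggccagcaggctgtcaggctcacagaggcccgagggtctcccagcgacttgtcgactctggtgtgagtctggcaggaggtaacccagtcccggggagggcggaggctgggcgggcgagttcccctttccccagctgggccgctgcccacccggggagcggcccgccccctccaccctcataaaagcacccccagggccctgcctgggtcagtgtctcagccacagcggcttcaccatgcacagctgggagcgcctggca
CFB, chr6:31945845-31946144, plus strand: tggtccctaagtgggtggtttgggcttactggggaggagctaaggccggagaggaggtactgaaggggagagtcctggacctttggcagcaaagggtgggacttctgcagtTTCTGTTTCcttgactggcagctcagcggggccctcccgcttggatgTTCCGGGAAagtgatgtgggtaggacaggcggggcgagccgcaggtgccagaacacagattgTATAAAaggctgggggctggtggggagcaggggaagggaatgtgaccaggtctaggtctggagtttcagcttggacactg
The CFB window held matches to 3 of the motifs: an IRF-type match starting 139 bases before the gene's start, a STAT-type match starting 92 bases before it and a TATA match starting 30 bases before it. The C1R window shown held 1 C/EBP-type match, starting 106 bases before the start. The window of the other C1R start, not shown, held a STAT-type match starting 86 bases and a C/EBP-type match starting 167 bases before it, and STAT-type and C/EBP-type matches were also found in windows of CD59. The windows of CD55 and CFD held no match to these 5 motifs, which says only that these letters are not in them. The GC box GGGCGG, bound by SP1 and not in capitals, was found in the CD55 and CFD windows and in 45.0% of all promoters. Among 35116 RefSeq promoters of the same length, 1.64% held the NF-kB-type, 7.66% the STAT-type, 8.11% the IRF-type, 10.5% the C/EBP-type and 11.5% the TATA motif. The matches shown do not overlap one another. Promoters of 7 of the 9 members were in the table used.

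Of the 8 members that passed the filter, 5 rose in resistant cells (C3, C1S, C1R, CD46 and CD55), 1 fell (CFD) and 2 did not pass the test (CFB and CD59). The ninth, CFI, was below the filter. Estimated reads per library behind the called members ran from 23049 for CD46 in a resistant library down to 484 for C1S in a control library. The share called was 75.0% of the tested members, beside 48.6% of all genes, and their median log2 change was 0.68, beside -0.00 over all genes. In 7 of the 8 the TPM values of the 2 groups did not overlap, as was so for 57.9% of all genes tested. Rises of at least 1 on the log2 scale were seen for C3 and C1S, beside 3.71% of all genes. The members and gene lists here were chosen with earlier results of these data known, so their shares are no test of an excess.

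**Figure D1:**
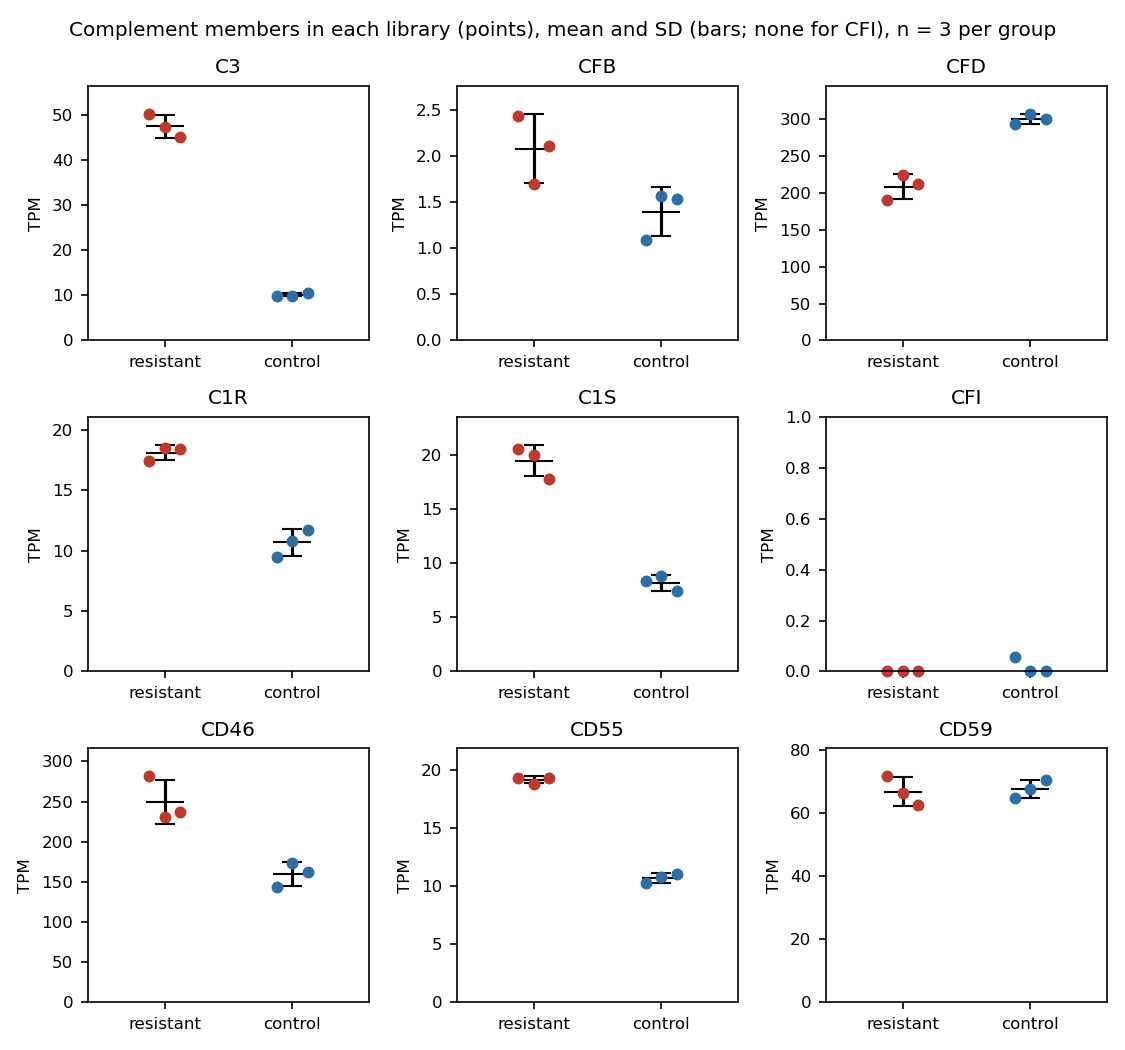
TPM of the 9 members (vertical axis of each panel, starting at 0) in each resistant and control library. Points are libraries and bars are the mean and SD (n = 3 per group; none for CFI); C3 lies between 45.0 and 50.1 TPM in resistant libraries, above all control libraries, while the groups overlap for CD59.

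C3 (ENSG00000125730, chromosome 19, 6677704 to 6730562 in GENCODE 29 on GRCh38), the central component, rose most among the members. Its level was 50.1, 47.4 and 45.0 TPM in resistant libraries 1 to 3, against 9.87, 9.95 and 10.6 TPM in control libraries 1 to 3. Every resistant library was far above every control library, and the spread within each group was small. The means were 47.5 ± 2.55 and 10.1 ± 0.389 TPM in resistant and control cells (SD, n = 3 each), a ratio of 4.69. The log2 change was 2.12 ± 0.06 (SE; adjusted p = 1.01e-06). C3 ranked 65 from the top of 16077 log2 changes. An estimated 3582 to 3923 reads per resistant library and 702 to 925 per control library lay behind it.

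The C1 proteases rose together, C1S by more than C1R. C1S (ENSG00000182326, chromosome 12, 6988259 to 7071032), which cleaves C4 and C2, was at 20.6, 20.0 and 17.8 TPM in resistant libraries and 8.32, 8.85 and 7.39 TPM in control libraries. The lowest resistant library was above the highest control library, and the log2 change was 1.16 ± 0.09 (SE; adjusted p = 4.63e-05). C1R (ENSG00000159403, chromosome 12, 7080199 to 7092607), which activates C1S, was at 17.4, 18.5 and 18.4 TPM in resistant libraries and 9.49, 10.8 and 11.7 TPM in control libraries. These groups did not overlap either, with a log2 change of 0.71 ± 0.08 (SE; adjusted p = 3.49e-04). The genes are neighbours on opposite strands.

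Within a library, the ratio of C1S to C1R TPM was 1.18, 1.08 and 0.969 in resistant cells and 0.877, 0.817 and 0.630 in control cells. The 2 groups of ratios did not overlap, and the two-sided exact permutation test gave p = 0.1, the smallest that 3 against 3 libraries allow. Of the exon bases of C1R, 11.4% are shared with its relative C1RL on the same strand. For C1S, 3.54% are shared with EMG1. How the authors' counting treated such reads is not given in the sources used here.

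Of the proteases of the alternative pathway, CFD fell and CFB did not pass the test. CFD (ENSG00000197766, chromosome 19, 859643 to 863630), or adipsin, the protease that activates factor B, was at 190, 224 and 212 TPM in resistant libraries and 294, 306 and 300 TPM in control libraries. It was the member with the highest level in control cells. All resistant libraries were below all control libraries, with a log2 change of -0.53 ± 0.06 (SE; adjusted p = 4.00e-04). CFD and C3 lie on the same chromosome and changed in opposite directions.

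CFB (ENSG00000243649, chromosome 6, 31945650 to 31952084), factor B, was low in both groups. It was at 2.44, 1.70 and 2.12 TPM in resistant libraries and 1.10, 1.57 and 1.54 TPM in control libraries, with an estimated 77.0 to 115 and 49.8 to 80.7 reads. The lowest resistant library lay just above the highest control library. The log2 change of 0.36 ± 0.16 (SE; 95% interval -0.01 to 0.73) did not pass the test (adjusted p = 0.0945). The coefficient of variation was 17.9% in resistant and 18.9% in control libraries, the largest of the tested members. Of its exon bases, 45.5% are shared with C2 or with a transcript that reads through from C2 into CFB. That transcript is the second row named CFB (ENSG00000244255), listed at 0 in all 6 libraries, and all of its exon bases are shared. Among 293 protein-coding genes with at least 90% of their exon bases shared on the same strand, 64.8% were listed at 0 in all libraries, against 13.2% of 18013 genes with under 10% shared. CFB itself, with 45.5% shared, lies in neither class. The part of this sharing in the low level of CFB was not tested.

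CFI (ENSG00000205403, chromosome 4, 109740694 to 109802179), factor I, the protease that needs CD46 or another cofactor, was listed at 0 in the 3 resistant libraries. Control libraries had 0.0568, 0 and 0 TPM, and the one value above 0 corresponded to an estimated 2.52 reads. No difference could be detected at that depth.

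The membrane regulators differed among themselves: CD46 and CD55 rose, and CD59 did not pass the test. CD46 (ENSG00000117335, chromosome 1, 207752057 to 207795513), the cofactor for factor I, was at 281, 230 and 237 TPM in resistant libraries and 143, 173 and 162 TPM in control libraries. The groups did not overlap, and resistant library 1 stood above the other two. Its log2 change was 0.64 ± 0.10 (SE; adjusted p = 0.00133).

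CD55 (ENSG00000196352, chromosome 1, 207321376 to 207386804), also called decay-accelerating factor, was at 19.3, 18.8 and 19.3 TPM in resistant libraries and 10.2, 10.8 and 11.0 TPM in control libraries. It was the tightest member in resistant cells, with a coefficient of variation of 1.59%, against 3.89% in control cells. The log2 change was 0.79 ± 0.06 (SE; adjusted p = 4.40e-05). CD59 (ENSG00000085063, chromosome 11, 33703010 to 33736491), the inhibitor of the membrane pore, was at 71.5, 66.2 and 62.4 TPM in resistant libraries and 64.6, 67.7 and 70.4 TPM in control libraries. The groups overlapped throughout. The log2 change was -0.02 ± 0.06 (SE; 95% interval -0.16 to 0.12; adjusted p = 0.816).

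**Figure D2:**
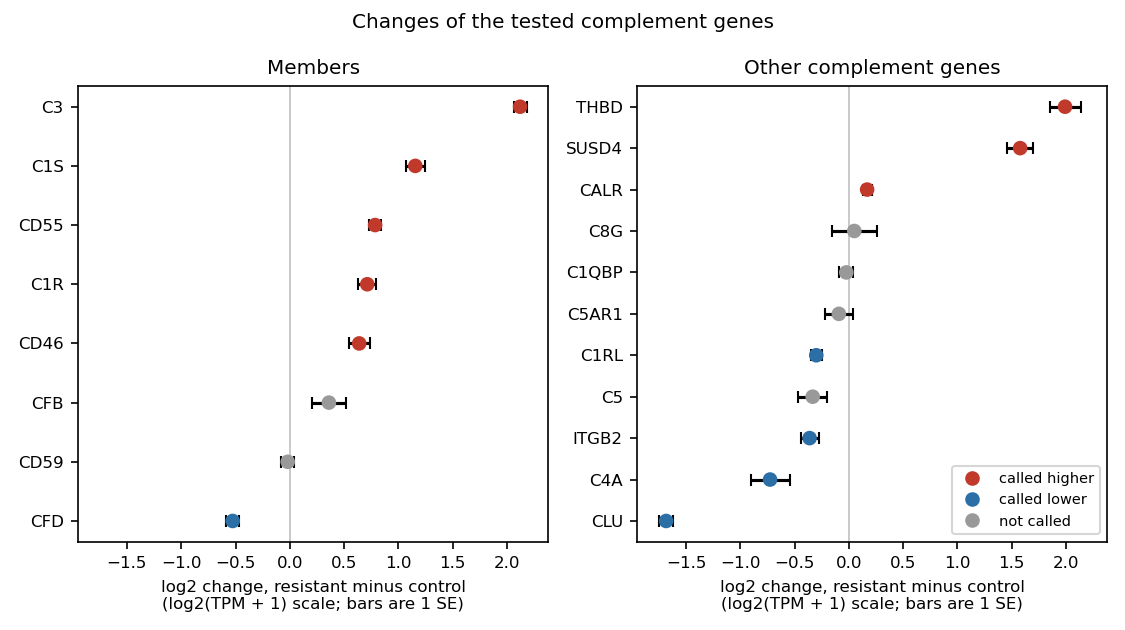
Log2 change of resistant against control cells, computed on log2(TPM + 1) values (horizontal axis), for the 8 tested members on the left and the 11 tested other complement genes on the right. Points are estimates over 3 resistant and 3 control libraries, bars are 1 SE and colours give the call. C3 lies at 2.12, THBD at 1.99 and CLU at -1.68. SUSD4 passed the filter through the resistant group only and C4A through the control group only, so their calls are not read as tests.

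The order of the levels differed between the groups. In resistant cells it was CD46, CFD, CD59, C3, C1S, CD55, C1R, CFB and CFI. In that order, neighbours had separate ranges except C1S and CD55. In control cells it was CFD, CD46, CD59, C1R, CD55, C3, C1S, CFB and CFI, where C1R overlapped CD55 and CD55 overlapped C3 in range. C3 thus overlapped CD55 in control libraries and lay above it in all resistant libraries.

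Set against the regulators within each library, C3 was higher in resistant cells. The ratio of C3 to CD59 TPM was 0.712 ± 0.0108 in resistant and 0.150 ± 0.00291 in control libraries (SD, n = 3 each). The ratio of C3 to CD46 was 0.191 ± 0.0139 in resistant and 0.0638 ± 0.00586 in control libraries, and that of C3 to CD55 was 2.48 ± 0.138 in resistant and 0.949 ± 0.0215 in control libraries. None of these 3 ratios overlapped between groups, and each reached the exact permutation p of 0.1, the smallest possible here. They rest on the same C3 values as given above and are not further evidence. The ratio of CD46 to CD55 was 12.2 to 14.6 in resistant and 14.0 to 16.1 in control libraries. That ratio overlapped between the groups (two-sided exact permutation p = 0.2). In all, 14 such ratios, sums and shares were computed, and an exact permutation test of 3 against 3 libraries cannot go below p = 0.1, so none could pass after adjustment.

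The summed TPM of CD46, CD55 and CD59 was 335 ± 32.1 in resistant and 238 ± 17.6 in control cells (SD, n = 3 each). CD46 made up 73.1% to 75.6% of that sum in resistant and 65.7% to 68.8% in control libraries. The summed TPM of the 6 secreted components was 296 ± 15.6 in resistant and 330 ± 7.61 in control cells. CFD made up 67.7% to 71.9% of it in resistant libraries, against 90.6% to 91.1% in control libraries. The ranges of these sums and shares did not overlap between the groups (exact permutation p = 0.1 for each). They are bulk RNA levels, in which fewer cells of a type and less RNA per cell cannot be told apart.

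**Figure D3:**
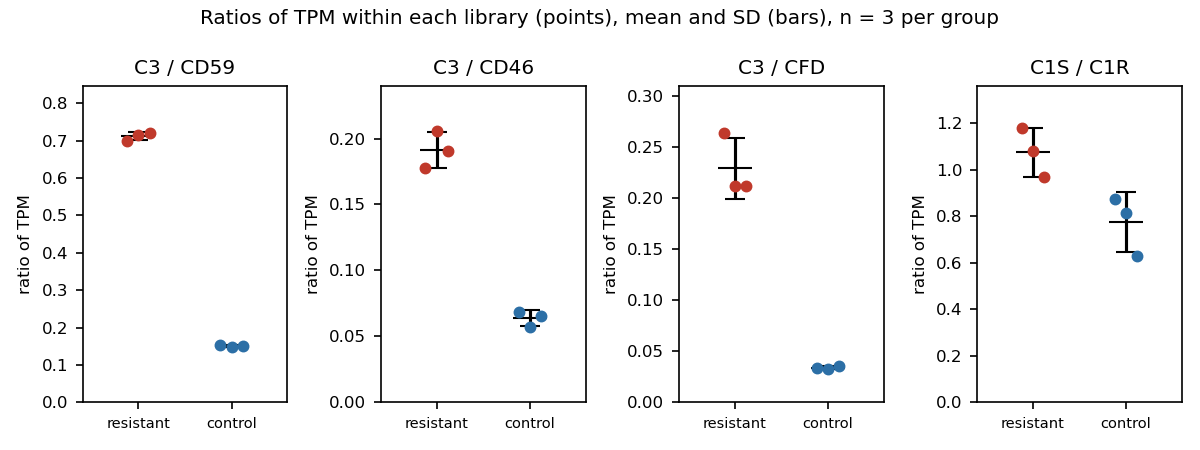
Ratio of TPM within a library (vertical axes, starting at 0) for C3 over CD59, C3 over CD46, C3 over CFD and C1S over C1R, in resistant and control cells. Points are libraries and bars are the mean and SD (n = 3 per group); the ratio of C3 to CD59 is 0.700 to 0.721 in resistant libraries and 0.147 to 0.153 in control libraries.

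The rest of the complement system was mostly at or near 0 in these cells. Of 54 other complement genes, 43 were below the filter, 40 were under 1 TPM in all 6 libraries and 16 were listed at 0 in all of them. The C1q chains C1QA, C1QB and C1QC, which recognise antibody and start the classical pathway, were among those at 0. C2, the classical pathway's counterpart of CFB, was at 0.168 to 0.307 TPM in resistant and 0.159 to 0.344 TPM in control libraries, and 33.3% of its exon bases are shared with neighbours. C5, the first component of the terminal pathway, was at 2.22 ± 0.303 TPM in resistant and 3.07 ± 0.492 TPM in control cells (SD, n = 3 each) and was not called (log2 -0.33, adjusted p = 0.0768).

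Of the 11 other complement genes tested, 3 rose, 4 fell and 4 were not called, a called share of 63.6% beside 48.6% of all genes, with a median log2 change of -0.09. SUSD4 passed the filter through the resistant group only and C4A through the control group only, since no library of the other group reached 1 TPM. Their direction was fixed by the filter, so their p-values are not read as tests. Of the 9 tested genes besides these, 2 rose and 3 fell, a called share of 55.6%. THBD, thrombomodulin, a membrane protein that restrains coagulation and complement, rose to 7.92 ± 0.510 TPM in resistant cells, against 1.26 ± 0.372 TPM in control cells (log2 1.99, adjusted p = 4.11e-05). SUSD4, a membrane inhibitor of the C3-cleaving enzyme, rose to 3.84 ± 0.134 TPM, against 0.620 ± 0.0337 TPM in control cells (log2 1.58, adjusted p = 4.86e-05). CALR, a chaperone that binds C1q at the cell surface, rose by a log2 change of 0.17 (adjusted p = 0.0114).

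CLU, clusterin, a secreted chaperone that inhibits the terminal complex, fell to 74.8 ± 6.49 TPM in resistant cells, against 242 ± 10.5 TPM in control cells (log2 -1.68, adjusted p = 4.08e-06). C4A, the classical component next to be cleaved by C1S, was at 0.399 to 0.573 TPM in resistant and 1.12 to 1.91 TPM in control libraries (log2 -0.73, adjusted p = 0.0124). C4A passed the filter through the control group only, so its p-value is not read as a test. C4A is also nearly identical to C4B, so its value is uncertain. ITGB2, the beta chain of complement receptors on leukocytes, fell by a log2 change of -0.36 (adjusted p = 0.00867) and C1RL, a relative of C1R, by -0.30 (adjusted p = 0.00228). C1RL fell while C1R, with which it shares exon bases, rose. SERPING1, the inhibitor of C1R and C1S, was at 0.590 to 0.948 TPM in resistant and 0.488 to 0.608 TPM in control libraries and was not tested.

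Genes that act upstream of complement transcription in other settings were measured as a list of 40 cytokines, receptors and transcription factors. Of 29 tested, 17 rose and 5 fell, a called share of 75.9% beside 48.6% of all genes, with a median log2 change of 0.25. IL1B passed the filter through the resistant group only, and of the 28 others 16 rose and 5 fell. The direction of IL1B was fixed by the filter, so its p-value is not read as a test. IL1B, an inflammatory cytokine, was at 3.79 ± 0.850 TPM in resistant and 0.260 ± 0.227 TPM in control cells (log2 1.93, adjusted p = 2.36e-04). IRF7, an interferon regulatory factor, was at 35.5 ± 0.842 TPM in resistant and 13.2 ± 1.11 TPM in control cells (log2 1.37, adjusted p = 8.34e-06). NFKB2, an NF-kB subunit gene, was at 65.6 ± 1.67 TPM in resistant and 32.3 ± 0.283 TPM in control cells (adjusted p = 4.45e-06). LIF, an IL-6 family cytokine (log2 1.14, adjusted p = 7.23e-06), and NR1H3, a liver X receptor (log2 0.93, adjusted p = 8.68e-06), also rose. The 5 genes that fell included the NF-kB subunit genes NFKB1 (log2 -0.34, adjusted p = 0.00418) and RELA (log2 -0.20, adjusted p = 0.00957) and the IL-1 receptor gene IL1R1 (log2 -0.30, adjusted p = 0.0134). IL6 itself was at 0.152 to 0.406 TPM in resistant and 0 to 0.0435 TPM in control libraries. IFNG was listed at 0 in all libraries. Whether these genes bear on the members was not tested.

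CD55 and CD59 are held on the membrane by a glycolipid (GPI) anchor. Of 27 tested genes of anchor synthesis and attachment, 6 rose, 3 fell and 18 were not called. The called share was 33.3%, beside 48.6% of all genes, and the median log2 change was 0.11. PIGU and PIGK, both subunits of the enzyme that attaches the anchor, changed in opposite directions. PIGU was at 57.1 ± 2.74 TPM in resistant and 39.7 ± 2.68 TPM in control cells (log2 0.51, adjusted p = 4.53e-04), and PIGK at 11.5 ± 0.373 TPM in resistant and 15.7 ± 1.43 TPM in control cells (log2 -0.42, adjusted p = 0.00321). PIGZ (log2 0.42, adjusted p = 0.0284) and PIGQ (log2 0.37, adjusted p = 0.00107) rose and MPPE1 fell (log2 -0.41, adjusted p = 0.00967). The call of PIGZ was lost in 7 of the 11 alternative settings that tested it (adjusted p = 0.0507 to 0.0947).

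The members were set beside the expressed protein-coding genes within 5 Mb, to show how their surroundings on the chromosome moved. Expressed here means a mean of at least 5 TPM in 1 of the groups. C3 lay above all 172 such neighbours, whose median log2 change was 0.00 and whose highest was 2.01. CFD lay near the low end, with 111 of 114 neighbours above it and a median of 0.03. C1S lay below 2 and C1R below 5 of 60 neighbours, whose median was 0.13, and each counts the other among its neighbours.

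CD46 and CD55 lie close together on the long arm of chromosome 1 and share nearly all neighbours. Of 60 neighbours of CD46, 25 were called higher and 8 lower, with a median log2 change of 0.16, and 8 lay above CD46. Of 59 neighbours of CD55, 27 were called higher and 8 lower, and 5 lay above CD55. The median over 1116 such genes of chromosome 1 was -0.07. Over all genes tested, a wider set that is not limited to expressed protein-coding genes, 24.0% were called higher and 24.7% lower. With the filter of 5 TPM in 3 libraries, 3017 of 11232 genes were called higher and 3552 lower. For C1R and for C1S, 28 of 60 neighbours were called higher and 11 lower, and the median of chromosome 12 was -0.07. For CFB they were 48 and 18 of 133, with a median of 0.11 and 29 above CFB. For C3 they were 36 and 52 of 172, for CFD 28 and 30 of 114, and for CD59 8 and 7 of 26. CD59 was close to the median of its 26 neighbours, 0.04.

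**Figure D4:**
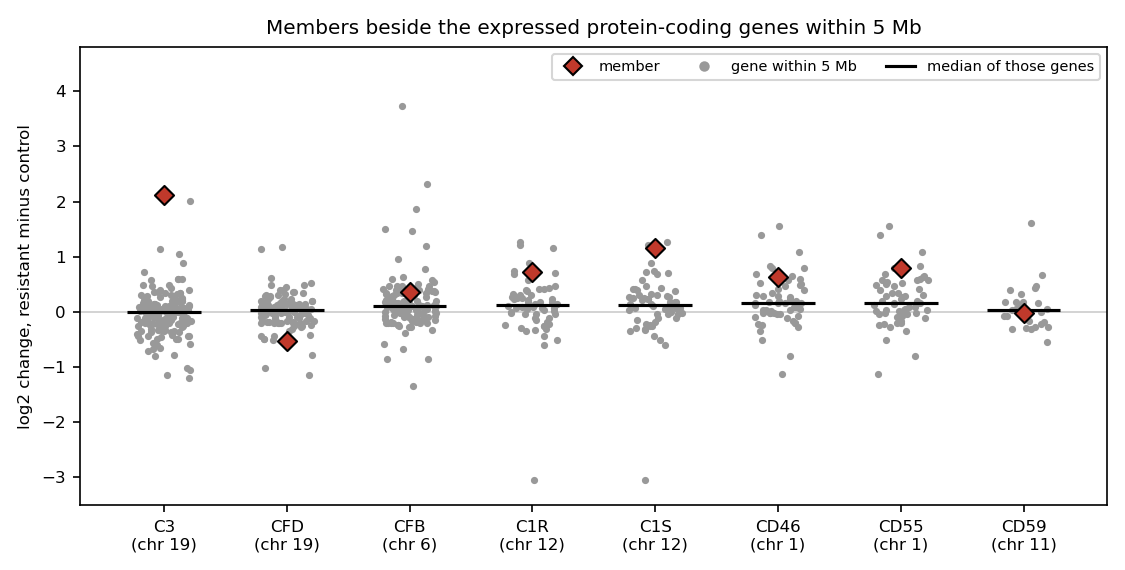
Log2 change, resistant minus control (vertical axis), of each of the 8 tested members (diamonds) and of the expressed protein-coding genes within 5 Mb of it (grey points), with their median as a line. C3 lies above all of its 172 neighbours, while CD46 and CD55 lie above neighbours whose medians are 0.16.

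Genes with the most similar pattern were taken for 3 members by Pearson's r of log2(TPM + 1) over the 6 libraries, which mainly reflects the difference between groups. For C3 they were SH3RF2, CD82 and LAMA4 (r = 0.9995 to 0.9999). SH3RF2 was at 15.8 ± 0.456 TPM in resistant and 7.64 ± 0.147 TPM in control cells. For CD55 they were UCP2, MTHFD1 and EHD3 (r = 0.9991 to 0.9996), and UCP2 was at 126 ± 1.97 TPM in resistant and 53.4 ± 3.86 TPM in control cells. For CFB they were MAPK6, AC005083.1 and WDR26 (r = 0.993 to 0.997).

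The labelled cell type was checked by marker lists. Of 12 epithelial markers, 11 passed the filter, of which 3 rose, 5 fell and 3 were not called, a called share of 72.7% beside 48.6% of all genes. The marker below the filter was NKX2-1, which was under 1 TPM in all libraries. The list summed to 18684 to 20008 TPM in resistant and 18071 to 18583 TPM in control libraries. KRT8, a keratin of simple epithelium, was at 6037 to 6574 TPM in resistant and 6304 to 6842 TPM in control libraries. All 12 hepatocyte markers were under 1 TPM in all libraries, with a summed level of 0.513 to 1.05 TPM in resistant and 0.274 to 0.930 TPM in control libraries. Of 14 leukocyte markers, 10 were under 1 TPM in all libraries, LYZ and MS4A1 were listed at 0 in all of them, and the list summed to 11.0 to 13.1 TPM in resistant and 9.10 to 9.54 TPM in control libraries. Most of this was CD14, at 4.34 to 4.96 TPM in resistant and 3.82 to 4.61 TPM in control libraries, and CSF1R.

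Of 12 fibroblast markers, 10 were under 1 TPM throughout, and the sum of 297 to 322 TPM in resistant and 384 to 395 TPM in control libraries was mostly FBLN1. The 2 tested fibroblast markers went in opposite directions, 1 higher and 1 lower. Of 10 endothelial markers, 6 were under 1 TPM throughout, and the sum of 86.7 to 93.4 TPM in resistant and 72.0 to 79.7 TPM in control libraries was mostly EGFL7. The 4 tested endothelial markers were called, 3 higher and 1 lower. Of 7 adipocyte markers, ADIPOQ and FABP4 were listed at 0 in all libraries. The list summed to 57.7 to 58.9 TPM in resistant and 48.2 to 52.9 TPM in control libraries, mostly PPARG. Of its 3 tested markers, LIPE and PPARG rose and PLIN1 fell (log2 -0.59, adjusted p = 0.00796). Every tested marker of the fibroblast, endothelial and adipocyte lists was thus called, beside 48.6% of all genes. The part of these lists in the members' values was not tested.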

How the data were processed

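Poly(A) RNA of 6 libraries, 3 of crizotinib-resistant and 3 of control H3122 cells, was sequenced from KAPA stranded libraries, per the labels' protocols. The authors deposited 1 table of TPM with a column per library, and each column summed to 1000000. The tool HISAT2 is named per the submitters' processing notes. The version, the counter, the reference build and the annotation are not given in the sources used.

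TPM keeps no depth. Reads were estimated by multiplying TPM by the union exon length in GENCODE 29 and dividing by the smallest step of the library. Of the estimates above 0, 67.1% to 67.9% were whole within 0.01 reads, so read numbers are approximate. They cover counting error only.

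Genes that reached 1 TPM in 3 or more libraries were tested with limma 3.58.1 in R 4.3.3 on log2(TPM + 1), using trended, robust moderation (statmod 1.5.0), two-sided, with Benjamini-Hochberg adjustment over all 16077 genes. On simulated data with 15232 tested genes, the test recovered 84.2% of genes changed by 1 and 48.4% of those changed by 0.5 on the log2 scale. In that simulation only a small share of genes changed and all had the same fixed dispersion. In the data 48.6% of genes were called, so the adjusted cut differs and these rates do not give the power here. Exon overlap was computed with bedtools 2.31.1 on GENCODE 29 coordinates (GRCh38), 1-based in the text. No 2 libraries were identical: the chi-square per gene within groups was 3.87 to 11.0, above the value near 1 of counting noise.

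The members and gene lists were chosen with earlier results of these data known. Named genes were all members, up to 10 called genes of the other complement list and up to 5 each of the upstream and GPI lists, whose higher group averaged 1 TPM or more, largest change first. The most abundant marker of each cell type and 3 genes most alike in pattern to C3, CFB and CD55 were added; any other gene was named after its values were seen. For hepatocytes that marker was AMBP, at 0.0540 to 0.253 TPM in resistant and 0.140 to 0.405 TPM in control libraries. Where 2 rows share a symbol, the higher was used. PIGW was not analysed here.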

Additional observations from a re-analysis of the deposited data

How the results depend on the processing

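The counts of members called, 5 higher and 1 lower, were the same under all 12 alternatives: no filter on low values, a pseudocount of 0.1, a filter of 5 TPM, median-ratio scaling, limma without trend and robust estimation, the replicate block, and each library left out in turn. CFB passed in none of the 11 alternatives that could test it (adjusted p = 0.0557 to 0.231) and fell below the filter of 5 TPM. CD59 passed in none of 12 (log2 change -0.07 to 0.03). C3 kept a log2 change of 2.08 to 2.22 and CFD one of -0.58 to -0.46. Without a filter, 6 of the other complement genes were called higher rather than 3; the filter had left the additional ones untested. With each library left out in turn, that list had 3 higher and 4 lower, the upstream list 13 to 15 higher and 4 to 6 lower, and the GPI list 4 to 6 higher and 2 to 4 lower. Replicate numbers did not pair the libraries: deviations from the group means correlated at -0.0583, -0.0017 and -0.0163 between same-numbered libraries, and a resistant library did not correlate best with its own number. With the replicate block, 5 members were called higher and 1 lower, and of the 25 tested named genes PIGZ lost its call (adjusted p = 0.0688). Under median-ratio scaling, the only other scaling run, the median log2 change of all genes was -0.01. That scaling centres the libraries on one another, so a median near 0 was built in and is no check of the scaling. CFI and other genes near 0 are limited by depth.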
